A study of Parascaris univalens with 7 samples.

Results

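The genes described here are 4 of the 15027 genes in a transcript table of the horse roundworm Parascaris univalens. They are PgR046_g002, annotated as regulator of rDNA transcription protein 15, PgR046_g003, annotated as TAR1, and PgR016_g098 and PgR139_g003, both annotated as the Pol polyprotein of the retrotransposable element R2. They were chosen by name and because their values were highest in embryo, so their embryo levels are a description of the libraries and support nothing further. The 4 genes have 10 transcripts in the table.

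RNA was taken from embryos and from the dissected organs of adults found in horse intestine, of a strain given as North American wildtype. The libraries were testis (labelled male germline), ovary (labelled female germline), and embryo, intestine and carcass, all 3 labelled male somatic, with no genotype or treatment that separates them. Carcass is the body left after dissection. There was 1 library per tissue, so no replicate error exists and no p-value was computed; intervals below are 95% counting intervals of reads and cover counting error only. Another 2 libraries, of mixed material, entered only as marks for 5′ ends of transcripts.

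Ribosomal DNA (rDNA) holds the repeated genes for ribosomal RNA, which RNA polymerase I transcribes in the nucleolus. In budding yeast, TAR1 is encoded on the strand opposite the large ribosomal RNA gene, and the regulators of rDNA transcription were named from a yeast screen for altered transcription of rDNA. R2 is a retrotransposon, best studied in insects, that inserts at a fixed site within the large ribosomal RNA gene and encodes a reverse transcriptase. TAR1 and R2 thus lie within ribosomal RNA genes in the species where they were studied. The roles of the Parascaris genes are known here only through these names, and no sequence was compared with ribosomal RNA genes here.

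The libraries held between 11900000 reads (embryo) and 31750000 (ovary), as recovered from the spacing of low values. Levels are in RPKM, reads scaled by transcript length and library total, so they can be compared between genes. Genes annotated as major sperm protein summed to 11989 RPKM in testis and at most 324.3 in any other tissue. Chondroitin proteoglycan genes, of the eggshell, summed to 32067 RPKM in ovary and at most 2441 elsewhere. Vitellogenin genes summed to 2091 RPKM in intestine and at most 446.6 elsewhere, and 3 of the 4 were highest in intestine. That library is labelled male somatic, and the sex of its worms was not tested. Troponin and cuticle collagen genes summed to 41234 RPKM in carcass and at most 1939 elsewhere. Of 109 such genes with at least 1 RPKM in some tissue, only 43 were highest in carcass. Of 57 homeobox genes with at least 1 RPKM in some tissue, 27 were highest in embryo. In whole tissues, fewer cells of a type and less RNA per cell cannot be told apart. Ribosomal RNA was removed with a kit for human, mouse and rat, per the labels' protocols, and what it left of Parascaris ribosomal sequence was not tested.

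The regulator of rDNA transcription, PgR046_g002, was the second highest gene of the whole embryo library. Its leading transcript stood at 52530 RPKM in embryo, 3027 in carcass, 1629 in intestine, 463.1 in ovary and 451.9 in testis. As deposited, the germline tissues were lowest and nearly level, the adult somatic tissues were intermediate, and embryo stood far above all 4. Embryo was 17.4-fold above carcass, the next tissue (counting interval 17.2 to 17.5), 32.2-fold above intestine, 113-fold above ovary and 116-fold above testis. All 4 transcripts of the gene had this order of embryo, carcass, intestine, ovary and testis, with embryo levels between 26769 and 52530 RPKM. Their embryo-to-carcass folds lay between 14.99 and 17.4, and carcass was between 1.79 and 1.86 times intestine. The transcripts overlap each other, so their values are not separate measurements.

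TAR1, PgR046_g003, lies over the same stretch of scaffold PgR046 on the opposite strand. Its single transcript had 25985 RPKM in embryo, 4537 in carcass, 4309 in intestine, 565.6 in ovary and 280.5 in testis. Embryo was again the highest tissue, but the margin over carcass was only 5.73-fold (5.68 to 5.77), with intestine and carcass close together and ovary at 2.02 times testis. Relative to the regulator beside it, the TAR1 level was 0.495 in embryo, 0.621 in testis, 1.22 in ovary, 1.499 in carcass and 2.64 in intestine. The overlapping pair on PgR046 thus did not keep a fixed ratio between tissues: its highest ratio was 5.35 times its lowest.

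PgR139_g003, annotated as R2, was the highest of all genes both in embryo and in intestine. It stood at rank 3 in ovary, 4 in carcass and 11 in testis. Its transcripts are between 348 and 473 nt long, and whether they encode the R2 polyprotein was not tested. Its leading transcript had 85011 RPKM in embryo, 26256 in intestine, 20565 in carcass, 10076 in ovary and 5026 in testis. All 5 tissues were at 5026 RPKM or more, and embryo exceeded intestine by 3.24-fold (3.22 to 3.25), ovary by 8.44-fold and testis by 16.9-fold. Its 4 transcripts ranged from 22109 to 85011 RPKM in embryo, while their embryo-to-intestine folds stayed between 2.92 and 3.27. As deposited, in each of them intestine was above carcass, unlike the other 3 genes, and ovary was between 1.84 and 2.01 times testis. Both orders depended on the scaling, as given below under processing.

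PgR016_g098, also annotated as R2, was the lowest of the 4 in every tissue. It had 2142 RPKM in embryo, 117.4 in carcass, 109.2 in intestine, 44.8 in testis and 33.1 in ovary. Its profile was nonetheless the steepest of the 4 towards the next tissue, with embryo 18.2-fold above carcass (17.98 to 18.5). Ovary was the lowest tissue, at 0.739 of testis, whereas ovary was at or above testis for the other 3 genes in the values as deposited. Thus the 2 genes with the R2 annotation differed more from each other than PgR016_g098 did from the regulator of rDNA transcription. As a distance between log2(RPKM + 1) profiles over the 5 tissues, after taking out each gene's mean, the R2 genes were 2.30 apart and PgR016_g098 and PgR046_g002 were 1.17 apart.

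**Figure D1:**
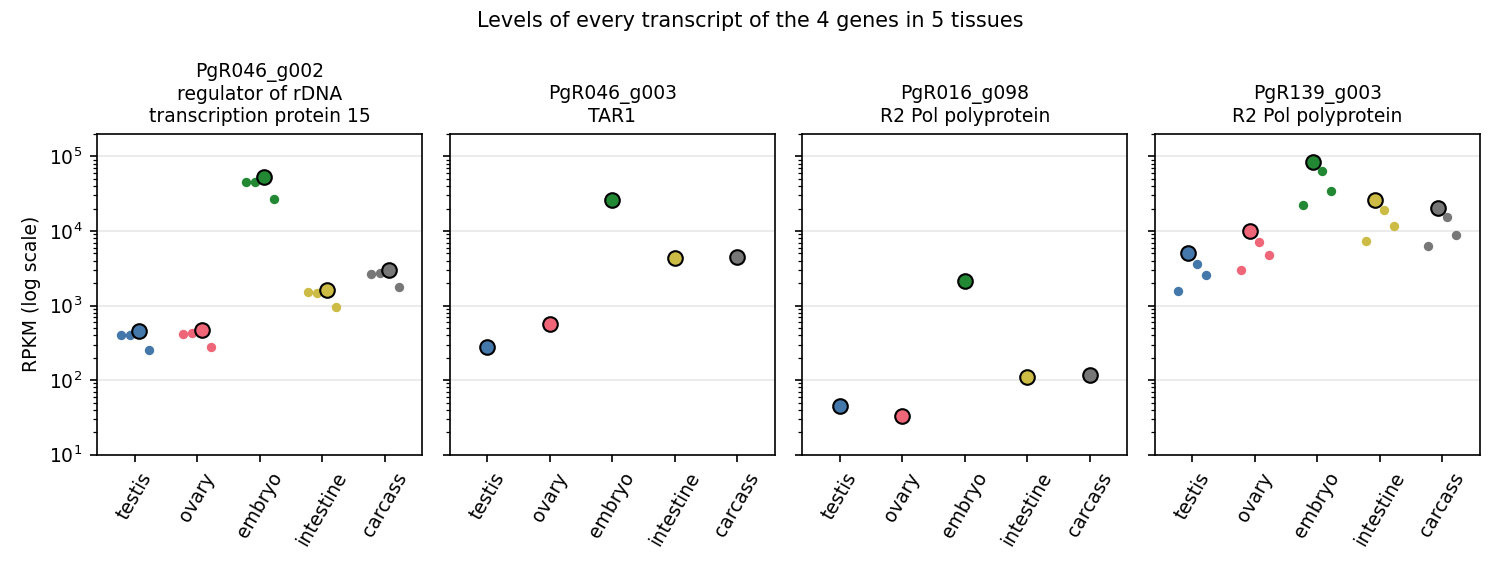
RPKM (log axis) of each transcript of the 4 genes in the 5 tissues, 1 library each; large outlined points are the transcript that represents the gene and small points its other transcripts. Embryo is highest in every panel, by 17.4-fold over the next tissue for PgR046_g002, 5.73-fold for PgR046_g003, 18.2-fold for PgR016_g098 and 3.24-fold for PgR139_g003.

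Together the 4 genes held 14.3% of the reads summed over the representing transcripts of all genes in embryo (counting interval 14.27% to 14.31%). Their share was 2.28% in intestine, 1.92% in carcass, 0.676% in ovary and 0.390% in testis. The embryo share was 6.26 times that of intestine, 7.45 times that of carcass, 21.1 times that of ovary and 36.7 times that of testis. Of the embryo share, PgR046_g002 gave 5.32%, PgR139_g003 5.11%, PgR046_g003 2.12% and PgR016_g098 1.73%, the last despite its low level because its transcript is 6360 nt long. In intestine PgR139_g003 alone gave 1.65% of the summed library and in carcass 1.18%. The embryo share was 25.3% when RPKM values were summed without regard to length. It was 12.2% with only 1 of the overlapping genes on PgR046, and whether reads were counted at both was not tested. With the transcript that the authors marked as best expressed, an alternative added after the data were seen, it was 9.50%. Of 7964 genes with more than 1 transcript, that mark was on the transcript with the highest mean in 3480 and on the one with the lowest in 1875. For PgR046_g002 and PgR139_g003 it was on the transcript that was lowest in embryo.

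The other genes with these annotations bring the list to 25. All 25 held 24.9% of the summed embryo library, and 4.47% in intestine, 3.68% in carcass, 1.31% in ovary and 0.752% in testis. As counted, these 25 held 19.5% of the read total behind the RPKM values of embryo. Since RPKM is a share of a library, the remaining genes of embryo would stand 1.24 times higher without them. The factor is between 1.01 and 1.03 in the other tissues. These values hold only if no read was counted at more than 1 of these genes, some of which overlap, and that was not tested.

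**Figure D2:**
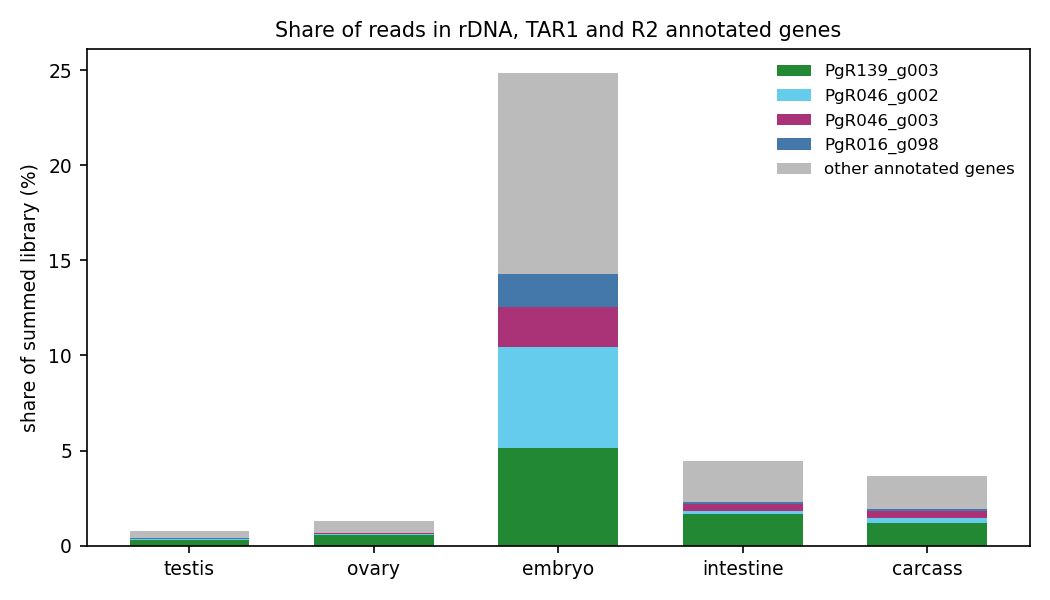
Share (%) of the summed library, RPKM times transcript length, that the 4 genes and the other 21 genes with the same annotations held in each tissue. The 4 genes make up 14.3% in embryo and at most 2.28% in any other tissue.

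The 25 genes fell into 2 ranges of embryo level with nothing between them. There were 9 genes between 2142 and 85011 RPKM in embryo, all highest in that tissue, and 16 at 22.2 RPKM or less. Genes were counted as embryo-enriched at 4-fold or more above each other tissue on the log2(RPKM + 1) scale with at least 5 RPKM in embryo. Across all genes, 286 met this rule, which is 1.9% of 15027, and 19.7% of all genes were highest in embryo. Of the 25, 5 met it, of which 3 were among the 4 genes described; the choice of members used this contrast, so nothing is read from that count. At 2-fold 9 of the 25 were called, beside 4.37% of all genes, and at 8-fold 3, beside 1.01%. PgR139_g003 did not meet it, at a log2 difference of 1.69, against 2.52 for PgR046_g003, 4.12 for PgR046_g002 and 4.18 for PgR016_g098. With median-of-ratios scaling these differences were 0.59 for PgR139_g003, 1.06 for PgR046_g003, 2.66 for PgR046_g002 and 2.72 for PgR016_g098, so that TAR1 no longer reached 4-fold; with upper-quartile scaling it stood at 1.35.

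**Figure D3:**
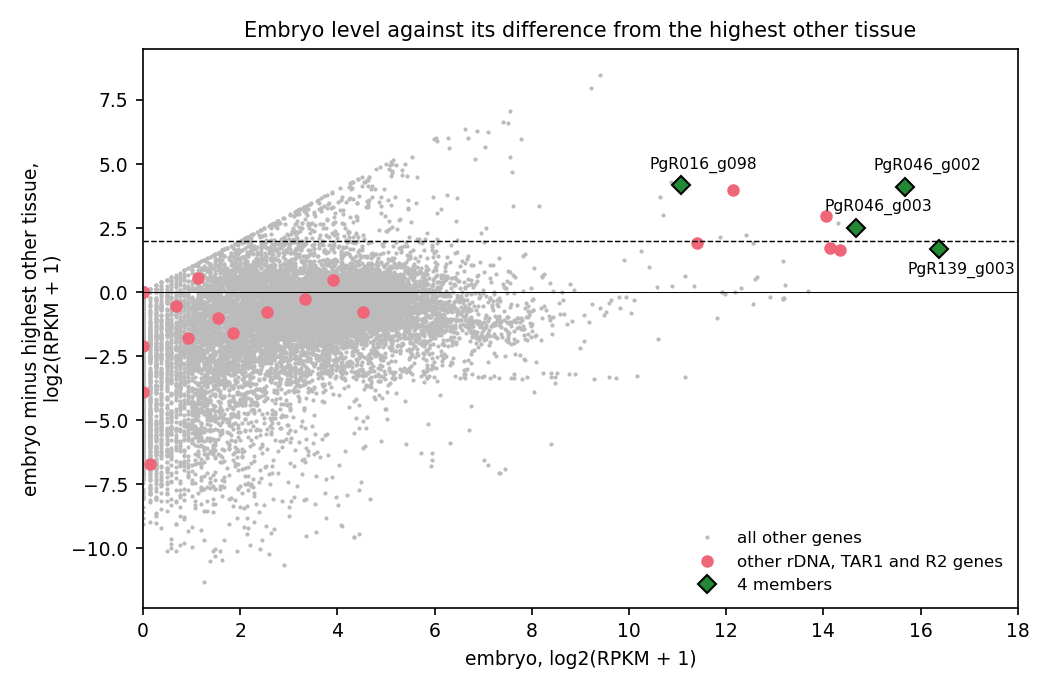
Embryo level on the log2(RPKM + 1) scale (x axis) against its difference from the highest other tissue on the same scale (y axis) for all 15027 genes; the dashed line is the 4-fold limit. The 4 genes lie at 2142 RPKM (PgR016_g098) or more in embryo, PgR139_g003 below the line at 1.69 and PgR046_g002 and PgR016_g098 above 4. Of the other genes with the same annotations, 16 lie at 22.2 RPKM or less in embryo.

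The 5 abundant genes of the list outside the chosen 4 were PgR010_g071 and PgR020_g145 (R2), PgR139_g004 (TAR1), and PgR020_g144 and PgR020_g146 (regulators of rDNA transcription). PgR010_g071 had 20783 RPKM in embryo, 6680 in intestine, 4878 in carcass, 2605 in ovary and 1415 in testis. PgR139_g004 was close to it, with 17978, 5491, 4335, 2230 and 1122 RPKM in the same order of tissues. Both were about as far above intestine in embryo as PgR139_g003, by 3.11-fold and 3.27-fold. PgR020_g145 followed with 2683 RPKM in embryo, 701.4 in intestine, 597.9 in carcass, 238.4 in ovary and 113.4 in testis, a fold of 3.83.

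The regulators on PgR020 had the steeper profiles. PgR020_g144 stood at 4545 RPKM in embryo, 285.1 in carcass, 184.4 in intestine, 70.3 in testis and 61.1 in ovary, which is 15.9-fold above the next tissue. PgR020_g146 had 17034, 2144, 2030, 227.4 and 350.7 RPKM in the same order, a fold of 7.94. Along the 9 genes the fold over the next tissue thus ran from 3.11 to 18.2. As deposited, the next tissue was intestine in the 4 genes with the lowest folds and carcass in the 5 with the highest. This split depended on scaling. The median-of-ratios factors were 1.19 for intestine and 1.89 for carcass, which would put carcass above intestine in those 4 genes too. The annotation alone did not set the place in the order of folds, since R2 genes stood at both ends. Of the R2 genes, though, only PgR016_g098 was steep, at 18.2, and the others had 3.11, 3.24 and 3.83. The TAR1 genes had 3.27 and 5.73, and the regulators of rDNA transcription all stood higher, at 7.94, 15.9 and 17.4.

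**Figure D4:**
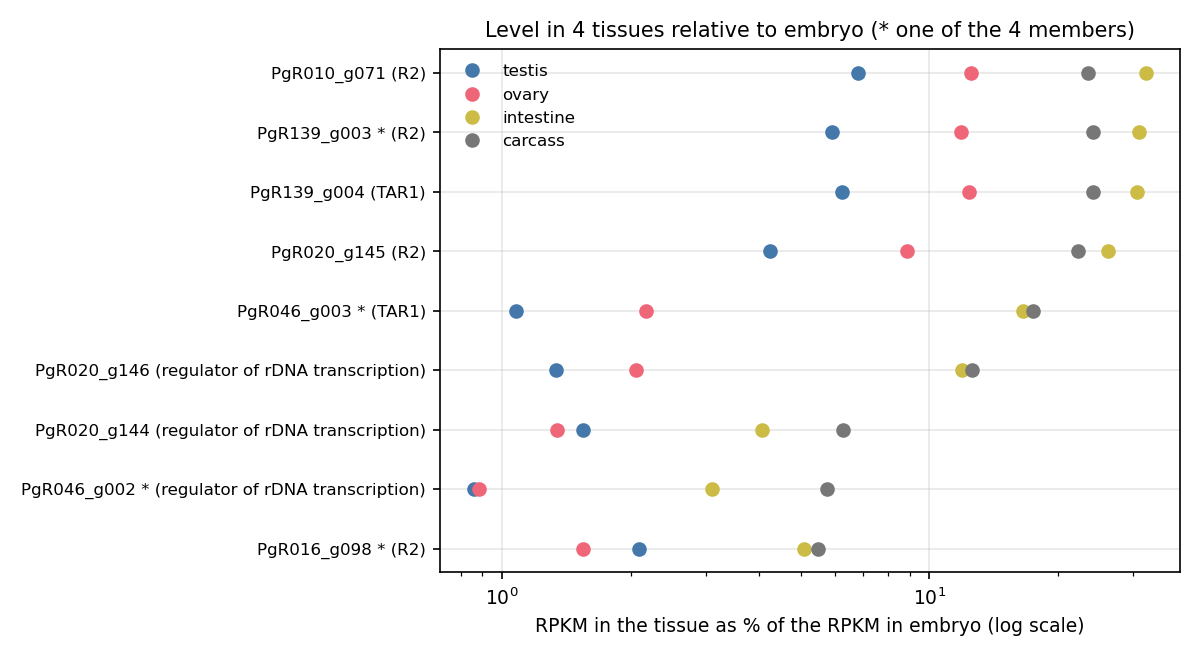
RPKM of the 9 abundant rDNA, TAR1 and R2 genes in testis, ovary, intestine and carcass as a percentage of their RPKM in embryo (log axis), ordered by the fold of embryo over the next tissue; stars mark the 4 chosen genes. The fold goes from 18.2 at the bottom (PgR016_g098) to 3.11 at the top (PgR010_g071). In the values as deposited, the tissue next to embryo is carcass in the lower 5 rows and intestine in the upper 4.

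Some pairs among these genes kept nearly fixed ratios. PgR139_g004 stood between 0.209 and 0.223 times PgR139_g003 in the 5 tissues, although the annotated strands are opposite, and the highest ratio was 1.07 times the lowest. PgR010_g071, on another scaffold, stood between 0.237 and 0.282 times PgR139_g003. In contrast, PgR016_g098 ranged from 0.0388 to 0.0991 times PgR046_g002, a spread of 2.56 times. Whether reads of one locus were counted at several of these genes was not tested, because the counting of reads that match more than 1 locus or strand is not stated in the labels or the table.

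By position, 7 of the 9 abundant genes lay in overlapping groups on PgR046, PgR139 and PgR020, whereas PgR010_g071 and PgR016_g098 overlapped none of the others. On PgR046, PgR046_g002 spans positions 33616 to 68774 on the minus strand and PgR046_g003 positions 54050 to 69877 on the plus strand, an overlap of 14725 bp. They stand at places 2 and 3 from the left among the 83 genes listed on the scaffold. The genes on either side, PgR046_g001 (hypothetical) at a gap of 1625 bp and PgR046_g004 (annotated as mucin-2) at 13078 bp, were listed at 0 in all 5 tissues. On PgR139, PgR139_g003 spans 44725 to 66114 on the minus strand. It overlaps TAR1 gene PgR139_g004 (44759 to 66799, plus strand) by 21356 bp and lies wholly within PgR139_g002 (43004 to 71536, plus strand), a hypothetical gene with 20147 RPKM in embryo, 3145 in carcass, 1049 in intestine, 345.9 in ovary and 138.6 in testis. The flanking genes PgR139_g001, an inositol hexakisphosphate kinase, and PgR139_g005, annotated as a glutathione gamma-glutamylcysteinyltransferase, were at 49.8 and 3.1 RPKM in embryo. The genome build behind these positions is not stated in the labels or the table.

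PgR010_g071 (PgR010, positions 1252688 to 1254036, plus strand) overlaps no other gene. Its neighbours, the beta-galactoside-binding lectin PgR010_g070 at a gap of 812 bp and nucleolar protein 14 (PgR010_g072) at 2903 bp, stood at 10.7 and 20.9 RPKM in embryo. PgR016_g098 covers positions 1860938 to 1867297 of scaffold PgR016 as 1 exon of 6360 nt with no strand given, and it lies wholly within the span of PgR016_g097 (1855631 to 1874532, plus strand), a cytoplasmic NADP isocitrate dehydrogenase. That host gene did not share the pattern, with 42.8 RPKM in ovary, 9.2 in embryo, 3.5 in testis, 1.5 in carcass and 0.2 in intestine. Its other neighbours, PgR016_g096 (trans-2-enoyl-CoA reductase 2) and PgR016_g099 (hypothetical), stood at 53.9 and 20.9 RPKM in embryo. The loci as drawn include the overlapping hypothetical genes PgR139_g002 and PgR020_g143, at 20147 and 6049.5 RPKM in embryo, but not PgR016_g097. Among the remaining genes centred within 60 kb, the highest embryo levels were 6.2 RPKM on PgR046, 13.6 on PgR020, 53.9 on PgR016 and 72.7 on PgR139.

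The genes also shared features that the choice did not use. None of the 10 transcripts carried a mark from the spliced leader library, which reports a short RNA spliced onto the 5′ end of many nematode mRNAs, or from the TeloPrime library, which captures capped 5′ ends. Of all 15027 genes 6831 carried either mark (45.5%), and of the 187 genes with at least 1000 RPKM in some tissue 153 did (81.8%). The 9 abundant genes of the list had 0 marks, whereas 17 of the other 36 genes with at least 1000 RPKM in embryo had one. Among these 36, however, 7 were embryo-enriched by the 4-fold rule, and only 1 of the 7 had a mark. The lack of a mark was thus not particular to the list. No transcript of the 4 genes was marked as eliminated DNA; with 6.55% of all genes so marked, this does not set them apart.

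The spliced members had short transcripts over long spans. The leading transcript of PgR139_g003 spans 45.2 times its length of 473 nt, that of PgR046_g003 24.6 times its length of 643 nt and that of PgR046_g002 19.5 times its length of 797 nt. These ratios exceeded those of 99.6%, 98.7% and 97.96% of all genes, whose median was 4.63, and the median of the 45 genes with at least 1000 RPKM in embryo was 3.08. The median number of exons was 2 for the members and 6 for all genes, but it was also 2 for those 45 genes.

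Genes that make ribosomes were highest in ovary more often than in embryo. The list, taken by words in the annotation, holds 62 genes for RNA polymerase I subunits, nucleolar proteins, rRNA processing and ribosome assembly, including 2 genes annotated rrnad1 that the letters rRNA caught. Of the 62, 43 had their highest value in ovary (69.4%, beside 35.9% of all genes), 9 in embryo (14.5%, beside 19.7%), 7 in intestine and 3 in testis. None was embryo-enriched by the 4-fold rule, which is near the 1.9% of all genes, and their median log2 difference between embryo and the highest other tissue, −0.86, was near the −0.89 of all genes. Ribosome production factor 2 (PgR018_g143), needed for assembly of the large subunit in yeast, had 361.3 RPKM in ovary, 164.8 in embryo, 79.5 in testis, 28 in carcass and 23.2 in intestine. RNA polymerase I subunit RPA12 (PgR088_g012) stood at 164.1 RPKM in ovary and 70 in embryo. The same order held for the pescadillo-like protein of rRNA processing (PgR025_g029; 174.3 and 47.5 RPKM), NSA2 (PgR009X_g223; 164.1 and 86.9), nucleolar protein 58 of the small nucleolar RNA particles (PgR051X_g010; 101.9 and 46.3) and H/ACA subunit 4 (PgR048_g065; 109.5 and 70).

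Other transposable element genes stood at 254.1 RPKM or less in embryo. Of 52 genes annotated as transposons, reverse transcriptases or related polyproteins outside the R2 list, 7 were highest in embryo (13.5%, beside 19.7% of all genes), 19 in testis (36.5%, beside 19.8%), and 7 were listed at 0 in all tissues. The count of embryo-enriched genes among them was 0, near the 1.9% of all genes. The highest, the Tf2-type element PgE295_g001, stood at 225.1 RPKM in ovary and 254.1 in embryo, with 25 in testis, 2.4 in intestine and 1 in carcass. Another Tf2-type element, PgE379_g002, had 47.4 RPKM in embryo and 18.2 in testis, and a LINE-1 reverse transcriptase, PgE006_g006, had 45.1 in testis and 15.5 in embryo. The 52 genes held 0.166% of the summed embryo library.

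Among the 16 low genes of the rDNA, TAR1 and R2 list, 2 passed 20 RPKM. PgR022X_g048 (R2) had 113.3 RPKM in testis and at most 2.1 in the other tissues, and PgR036_g040 (R2) was at 38.3 in intestine and between 15.9 and 22.2 elsewhere. Both carried the TeloPrime mark. The remaining 14 reached between 0 and 14.1 RPKM at their highest, and 4 of them were listed at 0 throughout.

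The genes most like each member were taken by the smallest distance between log2(RPKM + 1) profiles over the 5 tissues, among 7177 genes with at least 20 RPKM in some tissue. Nearest to PgR139_g003 were PgR139_g004 (distance 0.0881), PgR010_g071 (0.189), PgR095X_g039 (hypothetical, 0.323), PgR020_g145 (0.394) and PgR103X_g028 (hypothetical, 0.455). PgR020_g144 was nearest to both PgR046_g002 (0.708) and PgR016_g098 (0.512). For these 2 members the list went on with the hypothetical genes PgR040_g024 and PgE192_g001 and an enolase, PgR011_g179, which had 1671 RPKM in embryo and 208 in carcass. The last of the 5 was PgR139_g002 for PgR046_g002 (1.43) and a MACRO domain gene, PgR013_g086, for PgR016_g098 (0.929). Nearest to PgR046_g003 was PgR020_g146 (0.668), followed by PgR139_g002 (1.33), PgR060_g038 (hypothetical, 1.55), PgR011_g179 (1.84) and PgR020_g145 (1.89).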

How the data were processed

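The deposited table gives 1 value per transcript and tissue; the authors' values are RPKM to 1 decimal, a unit read from the values, since no header names it. The submitters' processing notes name the tools TopHat2 and Cufflinks but no version or role. No source used here states the genome build, the strandedness or how reads with several matches were counted. Transcript length, exon number and the marks for 5′ ends, elimination and best or largest transcript were used as deposited by the authors.

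Library depth was recovered as the read total at which low values become whole reads within the rounding of 0.05 RPKM: 31350000 reads in testis (100% of 177 values whole), 31750000 in ovary (98.5% of 133), 11900000 in embryo (93.2% of 2099), 18550000 in intestine (98% of 650) and 27600000 in carcass (100% of 292). Values that were not reads would be whole within the same rounding in 53.2% (embryo) to 63.7% (carcass) of cases. For a transcript of median length, 3 reads are 0.190 RPKM in embryo and at most 0.122 elsewhere. Intervals are exact (Poisson or Clopper-Pearson) at 95%.

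A gene was represented by its transcript with the highest mean over the 5 tissues. Shares are RPKM times length over the same sum of all genes. Differences are on log2(RPKM + 1), which understates folds of low genes; folds are plain RPKM ratios. The R2 genes were found by the words "retrotransposable element R2", in the order of the annotation. Named genes are the 4 members, annotated genes with at least 20 RPKM, the 6 with the highest mean of each other list, neighbours and the 5 nearest profiles; the genes beside low R2 copies and the groups at 1000 RPKM were chosen after their values were seen. Members and lists were chosen with earlier results of these data known. Alternatives were scaling, pseudocount, fold and level limits and the transcript used. The depth and call steps were tested on simulated Poisson reads of the representing transcripts. The simulation had no overlapping transcripts and no reads shared between genes, so it cannot speak to either. Python 3.11.15, pandas 2.3.3, SciPy 1.17.1 and matplotlib 3.10.9 were used. No columns of other samples were found (0).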

Additional observations from a re-analysis of the deposited data

How the results depend on the processing

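All 4 genes stayed highest in embryo under every scaling, pseudocount and transcript choice tried. Their log2 differences between embryo and the next tissue moved by more than counting error in most alternatives. In the order PgR046_g002, PgR046_g003, PgR016_g098, PgR139_g003 they were 3.92, 2.02, 3.72 and 1.13 with TPM, 2.66, 1.06, 2.72 and 0.59 with median-of-ratios scaling, 2.95, 1.35, 3.01 and 0.88 with upper-quartile scaling, and 4.54, 2.88, 4.56 and 1.98 with the 25 annotated genes taken out before equal sums were set. The median difference of the 14038 genes with at least 1 RPKM in some tissue, −1.0 as deposited, moved by −0.23, −0.19, −0.06 and 0.40 in these 4 cases. Summing transcripts gave 4.05 for PgR046_g002 and 1.66 for PgR139_g003, and the authors' best expressed transcript, added after the data were seen, 3.91 and 1.58. A pseudocount of 5 gave 4.13 for PgR016_g098. The order of the other tissues also depended on scaling. Median-of-ratios scaling multiplied testis by 1.20, ovary by 0.539, intestine by 1.19 and carcass by 1.89. These factors would put ovary below testis in all 4 genes and carcass above intestine in PgR139_g003.

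The embryo share of the 4 genes, 14.3%, was 25.3% with RPKM summed regardless of length, 11.9% over all transcripts, 12.2% with only 1 of the overlapping genes on PgR046, 11.2% of the read total behind the RPKM values and 9.50% with the authors' best expressed transcripts, the last 2 added after the data were seen. Of the 25 annotated genes, 5 were embryo-enriched (1.9% of all genes), 3 with median-of-ratios scaling (1.37% of all), 3 with upper-quartile scaling (1.58%), 6 with the annotated genes taken out (2.84%), 3 at 8-fold (1.01%) and 9 at 2-fold (4.37%). The data were the same in each case and only the setting differed. Which setting is nearest to the RNA of the tissues was not tested. The count of 0 for ribosome synthesis genes did not change in the 10 alternatives tried. No paired analysis was possible because each tissue has 1 library. With 1 library per tissue, how far another sample would differ is unknown. Depth limits genes near 3 reads in embryo, which is 0.190 RPKM for a transcript of median length and more for shorter ones.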

Other observations

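Some genes with steep embryo profiles lie beside R2-annotated genes that were themselves near 0. The hypothetical gene PgE192_g001 (PgE192, positions 8201 to 10855) is 503 bp from the R2 gene PgE192_g002, which was listed at 0 in all tissues. PgE192_g001 stood at 2170 RPKM in embryo, 108.4 in intestine, 78.2 in carcass, 34.6 in ovary and 25.5 in testis, 20.02-fold above the next tissue. It is marked as eliminated DNA, yet intestine and carcass, labelled somatic, were above both germline tissues. The hypothetical gene PgR040_g024 (PgR040, positions 323771 to 325245) is 2018 bp from the R2 gene PgR040_g025, at 1.2 RPKM in embryo, and had 1853, 93.9, 69, 24.5 and 18.8 RPKM in the same order of tissues, a fold of 19.7. Reads shared between copies of one sequence were not tested for either gene.

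Of 45 genes with at least 1000 RPKM in embryo, 12 were embryo-enriched by the 4-fold rule (26.7%, beside 1.9% of all genes). The 45 were taken for a high embryo level, which favours this call, so nothing is read from that count. Of these 12, 5 belonged to the rDNA, TAR1 and R2 list and 4 were hypothetical, namely PgR139_g002, PgE192_g001, PgR040_g024 and PgR060_g038. The other 3 were an RNA helicase A (PgR039_g031; 5418 RPKM in embryo and 1147 in carcass), a fatty acid-binding protein (PgR015_g036; 3766 and 856.5) and the enolase PgR011_g179. A mark for a 5′ end was carried by 1 of the 12, beside 37.8% of the 45 genes and 45.5% of all genes. The 5 genes of the list had none, so the marked gene was among the 7 outside it.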
